A study of Homo sapiens with 6 samples.

Results

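Keratin genes were followed in 786-O cells, an established human clear cell renal carcinoma line, after stable knockdown of YB1. The members were the rows of the deposited expression table whose symbol is KRT, a number and at most a letter from A to C, which left out the keratin-associated genes. This gave 55 of the 20030 genes in the table, of which 38 are epithelial keratins (18 of type I and 20 of type II) and 17 are hair keratins (11 of type I and 6 of type II). Of the 55, 7 had a mean of at least 1 FPKM over all libraries and were tested, 5 had a mean of 0.1 to 1 FPKM, 21 were above 0 in at least 1 library with a mean under 0.1 FPKM, and 22 were listed at 0 in all libraries. FPKM corrects fragment numbers for transcript length and for the size of the library, so levels can be compared between genes.

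Keratins are the intermediate filament proteins of epithelial cells. A filament is built from pairs of an acidic type I and a basic type II keratin, and the pair in use depends on the kind of epithelium. KRT8 with KRT18 or KRT19 is the usual set of simple epithelia such as the kidney tubule, KRT5 with KRT14 is that of basal epidermal cells, and hair keratins are made mainly in the hair shaft. YB1, encoded by YBX1, is a cold-shock domain protein that binds DNA and RNA and was first described by its binding to the Y-box, an inverted CCAAT sequence in promoters.

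Each group had 3 libraries. Both groups were 786-O cells that were infected with lentivirus, selected in puromycin and harvested on day 7, at passages 16 to 18 by the labels. Cells of the first group, called vector, carried a scrambled shRNA, and cells of the other, called shYB1, carried an shRNA against YB1. The series text speaks of more than a single shRNA to YB1, but the labels name just the shYB1 group, and its 3 libraries stand here as replicates. Nothing in the labels says that the replicates were separate infections, and the p-values then measure only the spread between these libraries. A single cell line was sequenced.

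FPKM totals over all genes ranged from 282736 to 295887 per library, and the relative depth read from the spacing of the lowest values was 0.979 to 1.10 when shYB1 replicate 1 was set to 1. The absolute depth is unknown. YBX1 itself was at 366.5, 372.8 and 377.9 FPKM with vector against 166.7, 165.9 and 173.3 FPKM with shYB1, and its log2 fold change was -1.14 (standard error 0.031, limma adjusted p = 1.53e-08). Of 10 markers of renal epithelium and clear cell carcinoma, 9 had a mean of at least 1 FPKM, with PAX8 at 77.3 and VIM at 1419 FPKM, and the exception, NDUFA4L2, was at 0.273 FPKM. No keratinocyte, urothelial, leukocyte or endothelial marker reached a mean of 1 FPKM, and of the fibroblast markers LUM did, at 2.18 FPKM. The summed keratinocyte markers were 0.292 to 0.394 FPKM in vector and 0.410 to 0.633 FPKM in shYB1 libraries, the fibroblast markers 2.24 to 2.44 and 2.60 to 2.70 FPKM, and the endothelial markers 0.365 to 0.406 and 0.240 to 0.326 FPKM. These small shifts moved with the groups, and their part in the results was not tested. Of the keratinocyte list, TP63, KRT14 and DSG3 were listed at or near 0, KRT5 reached 0.203 FPKM, and COL17A1 was at 0.263, 0.258 and 0.351 FPKM with vector against 0.429, 0.382 and 0.389 FPKM with shYB1, without overlap. Of the endothelial list, CDH5 and VWF were at or near 0, and PECAM1 was at 0.406, 0.380 and 0.365 FPKM with vector against 0.230, 0.278 and 0.326 FPKM with shYB1, also without overlap. Of the fibroblast list, DCN and PDGFRA were at or near 0 and COL1A1 had a mean of 0.308 FPKM.

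The most abundant keratins of these cells were those of simple epithelia. KRT19, KRT8 and KRT18 made up 93.9% to 94.2% of the summed keratin FPKM in vector libraries and 91.6% to 92.0% in shYB1 libraries. The remaining tested members were, in order of their mean over all libraries, KRT80, KRT79, KRT10 and KRT81, although with vector alone the mean of KRT10 (4.73 FPKM) was above that of KRT79 (4.33 FPKM). KRT81 is a hair keratin, and it was the only one of 17 hair keratins to pass the filter. It passed through the shYB1 libraries, since its vector mean was under 1 FPKM.

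After YB1 knockdown, KRT81, KRT80 and KRT79, all type II keratins, rose to 2.72, 1.58 and 1.46 times their vector mean in FPKM, and KRT19 rose to 1.09 times. KRT8, KRT18 and KRT10 did not pass the test. In counts, 4 of the 7 tested keratins were higher and 0 lower at an adjusted p under 0.05 from limma, whereas 25.7% of all 10439 genes tested were called in either direction, 18.7% higher and 6.93% lower. After median-of-ratios rescaling 3 of the 7 were higher, against 11.4% of all genes tested, with 12% lower. KRT81 entered the 7 through the libraries in which it was high, and without it the counts were 3 of 6 epithelial keratins higher and 0 lower. The median log2 fold change was 0.12 over the 7 keratins, 0.093 over the 6 epithelial keratins without KRT81 and 0.055 over all genes tested. The groups did not overlap in 4 of the 7 keratins and in 3 of the 6 epithelial ones, all with shYB1 higher. Over all genes tested they did not overlap in 42.6%, and in 30.1% with shYB1 higher. In RNA from whole cultures, a change in the share of cells that express a gene and a change in its RNA per cell cannot be told apart.

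**Figure D1:**
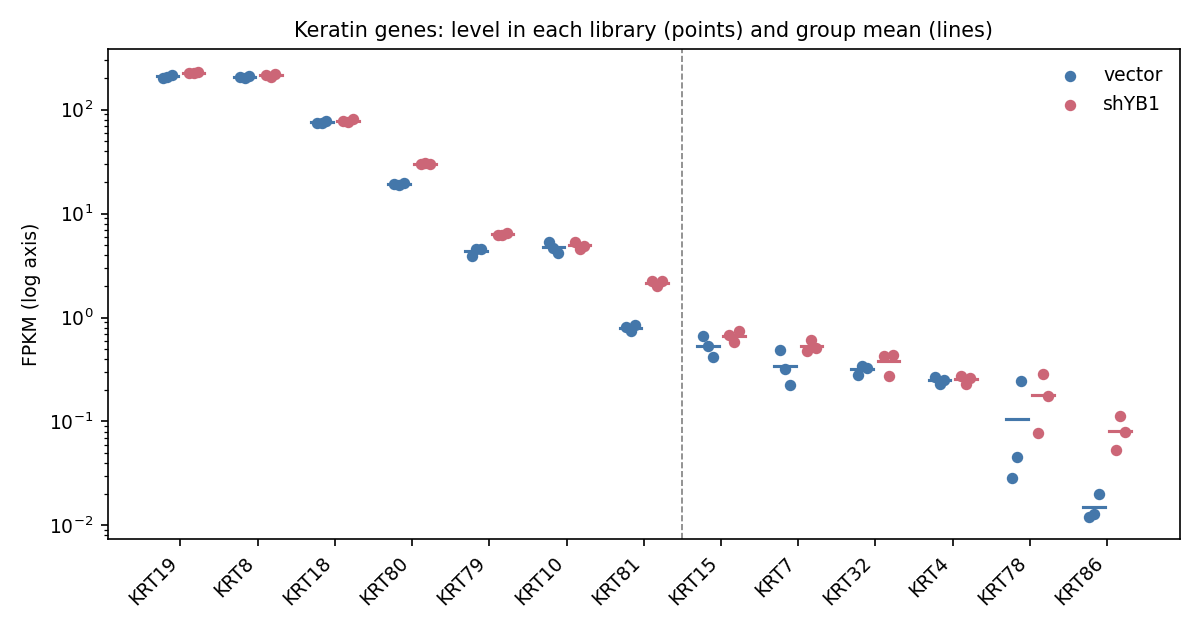
FPKM on a log axis of the 7 tested keratins (left of the dashed line), the 5 keratins with a mean of 0.1 to 1 FPKM and KRT86, for vector (blue) and shYB1 (red) cells. Points are libraries and lines are group means of 3 libraries. The groups are apart in KRT81, KRT80, KRT79, KRT19 and KRT86 and overlap in the other genes shown.

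KRT81 is a type II keratin of the hair cortex. In FPKM it was at 0.807, 0.744 and 0.844 with vector against 2.24, 2.02 and 2.24 with shYB1. Every shYB1 library was above every vector library, and the spread within a group was small beside the gap. The means were 0.798 ± 0.0505 and 2.17 ± 0.127 FPKM (SD, n = 3 each). The log2 fold change on the log2(FPKM + 0.1) scale was 1.34 (95% confidence interval 1.12 to 1.55, standard error 0.097, limma adjusted p = 1.23e-05). This ranked 1 from the highest among all genes tested, a set that KRT81 entered through its shYB1 libraries. With a pseudocount of 1 in place of 0.1 the log2 fold change was 0.82 (limma adjusted p between 1.85e-06 and 0.000314 over all alternatives). Its rank there was not computed.

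The value of KRT81 has to be read with that of its near copy KRT86, another type II hair keratin. KRT81 occupies positions 52285913 to 52291534 of chromosome 12 (GRCh38, minus strand), inside the span of KRT86, which runs from 52249300 to 52309163 on the plus strand. Their coding sequences, of 1515 and 1458 bases, were identical in 89.7% of aligned positions, with an uninterrupted identical stretch of 605 bases. Of all 50-base words in the annotated transcripts of KRT81, 37.6% were also found in KRT86, 8.87% in the pseudogene KRT87P, 6.11% in KRT83 and 5.95% in KRT85, and 43.7% were found in at least 1 other gene. Fragments from these stretches could have been assigned to either gene, so the level of each is uncertain.

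KRT86 was at 0.0121, 0.0127 and 0.0201 FPKM with vector against 0.0530, 0.113 and 0.0797 FPKM with shYB1. All 3 shYB1 libraries were above all 3 vector libraries. In units of its smallest value, after allowing for the relative depth, these were 1, 1 and 1.5 with vector against 4.01, 8.79 and 5.89 with shYB1, which are not all whole multiples. KRT86 was under the filter. In a fit with no filter on the level its log2 fold change was 0.65 (standard error 0.14, limma adjusted p = 0.0251), where 13.7% of all genes with a value above 0 were called and 9.89% were called higher. The size depended on the pseudocount, with 0.092 at 1 and 1.84 at 0.01. The adjusted p from limma rose to 0.0853, 0.0781 and 0.0544 without vector replicate 1, 2 or 3, and to 0.0671 and 0.0716 without shYB1 replicate 2 or 3. The summed FPKM of KRT81 and KRT86 was 0.819, 0.757 and 0.864 with vector against 2.29, 2.13 and 2.32 with shYB1, a log2 fold change of 1.36 (standard error 0.095, limma adjusted p = 8.66e-06). Of the other type II hair keratins, KRT82, KRT83 and KRT85 were listed at 0 in every library, and KRT84 was at 0.0192 FPKM in vector replicate 2, at 0.0203 FPKM in shYB1 replicate 3 and at 0 elsewhere.

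KRT80 is a type II keratin found at low levels in many epithelia. It lies at the outer end of the type II cluster, on chromosome 12 from 52168996 to 52192000 on the minus strand. In FPKM it was at 19.1, 18.7 and 19.7 with vector against 29.7, 30.9 and 30.1 with shYB1. The groups were far apart and the libraries within each lay close together. Its log2 fold change was 0.66 (95% confidence interval 0.57 to 0.74, standard error 0.039, limma adjusted p = 3.68e-06), rank 42 from the highest among all genes tested. Of its 50-base words, 0.364% were found in other genes.

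KRT79 is a type II keratin known from the hair follicle duct and sebaceous gland. It lies on chromosome 12 from 52821410 to 52834295 on the minus strand. In FPKM it was at 3.86, 4.54 and 4.57 with vector against 6.28, 6.20 and 6.49 with shYB1. Vector replicate 1 was the lowest, and no library of one group reached the other. Its log2 fold change was 0.54 (95% confidence interval 0.38 to 0.70, standard error 0.072, limma adjusted p = 0.000618), rank 87 from the highest, and 0.236% of its 50-base words were found in other genes.

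**Figure D2:**
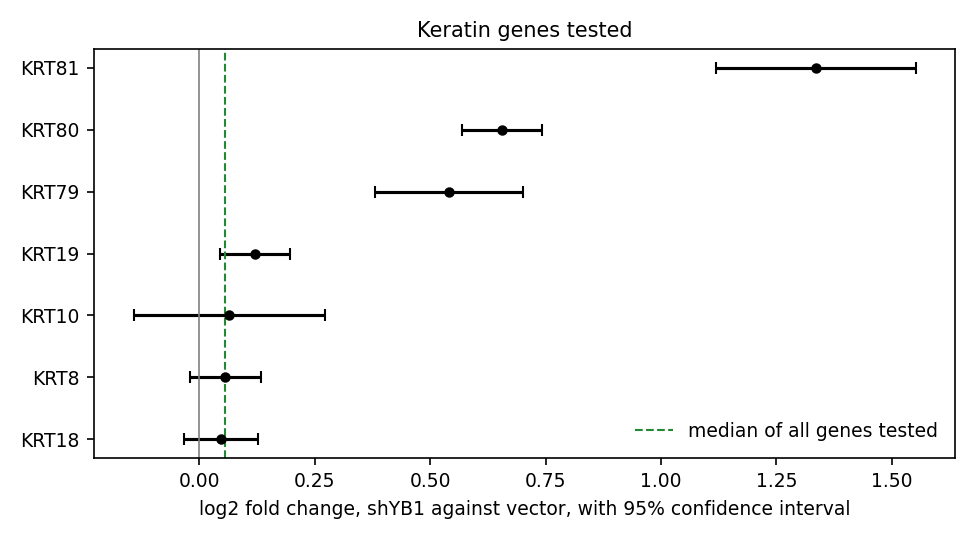
Log2 fold change of the 7 tested keratins, shYB1 against vector, on the log2(FPKM + 0.1) scale (x axis), with 95% confidence intervals from limma. KRT81, KRT80 and KRT79 lie at 1.34, 0.66 and 0.54, and the other 4 lie between 0.047 and 0.12, near the dashed line at the median of all genes tested, 0.055.

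KRT19, KRT8 and KRT18 carry most of the keratin mRNA of these cells. KRT19, a type I keratin of simple epithelia, lies on chromosome 17 from 41523617 to 41528308 on the minus strand. In FPKM it was at 203.1, 206.2 and 215.6 with vector against 223.6, 223.3 and 232.6 with shYB1, with no overlap. Its log2 fold change was 0.12 (95% confidence interval 0.045 to 0.20, standard error 0.034, limma adjusted p = 0.0259). This call did not hold in 7 of 15 alternatives. The adjusted p from limma was 0.131 after median-of-ratios rescaling and 0.0949 with a variance prior without trend. It was 0.0972 and 0.0729 without vector replicate 1 or 2, and 0.0553, 0.0579 and 0.0928 without shYB1 replicate 1, 2 or 3.

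KRT8, the type II partner of both, lies on chromosome 12 from 52897187 to 52949954 on the minus strand. In FPKM it was at 205.0, 201.0 and 211.5 with vector against 215.5, 206.7 and 220.2 with shYB1. The groups overlapped, and the log2 fold change was 0.057 (95% confidence interval -0.021 to 0.13, limma adjusted p = 0.261). KRT18, a type I keratin that lies beside KRT8 on chromosome 12 from 52948871 to 52952901 on the plus strand, was at 75.0, 73.9 and 78.4 FPKM with vector against 77.2, 76.7 and 80.9 FPKM with shYB1. The groups overlapped here too, with a log2 fold change of 0.047 (95% confidence interval -0.034 to 0.13, limma adjusted p = 0.377). Of the transcript of KRT18, 26.4% overlaps annotated exons of KRT8 on the opposite strand. The strand protocol of the libraries is not given in the sources used here, so fragments from that part cannot be told apart if it was not used. Words of 50 bases were shared with other genes for 16.1% of KRT8 and 24.5% of KRT18, largely with each other and with their pseudogenes.

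KRT10 is a type I keratin that pairs with KRT1 in upper epidermal layers. It lies on chromosome 17 from 40818117 to 40822595 on the minus strand. In FPKM it was at 5.36, 4.64 and 4.18 with vector against 5.36, 4.59 and 4.85 with shYB1. It was the most variable of the tested keratins above 1 FPKM in both groups, and its log2 fold change was 0.065 (95% confidence interval -0.14 to 0.27, limma adjusted p = 0.646). Its partner KRT1 was listed at 0 in every library.

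In the order of levels, KRT19 and KRT8 did not separate in vector cells, at 208.3 ± 6.51 and 205.8 ± 5.30 FPKM (SD, n = 3 each). In shYB1 cells they were at 226.5 ± 5.24 and 214.1 ± 6.89 FPKM. Within each library the ratio of KRT19 to KRT8 was 0.991, 1.03 and 1.02 with vector against 1.04, 1.08 and 1.06 with shYB1. Every shYB1 library was higher, and their mean was 1.05 times that of the vector libraries. KRT18 stayed at 0.366 to 0.371 of KRT8 in vector and at 0.358 to 0.371 in shYB1 cells. KRT79 and KRT10 overlapped in vector cells, and KRT79 was above KRT10 in every shYB1 library.

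A ratio within a library does not depend on how the libraries are scaled. The ratio of KRT80 to KRT8 was 0.0930, 0.0931 and 0.0931 with vector against 0.138, 0.150 and 0.137 with shYB1, where the mean was 1.52 times that with vector. For KRT79 the ratio to KRT8 was 1.41 times that with vector, and for KRT81 it was 2.61 times. In each of these the groups did not overlap (two-sided exact permutation test, p = 0.1, which is the lowest that 3 against 3 can reach). The ratios of KRT18 and KRT10 to KRT8 overlapped (two-sided exact permutation test, p = 0.8 and p = 1). The ratio of KRT81 to KRT80 did not overlap either, at 0.0417 ± 0.00167 with vector and 0.0718 ± 0.00559 (SD, n = 3 each, two-sided exact permutation test, p = 0.1), whereas the ratio of KRT79 to KRT80 overlapped, at 0.226 ± 0.0206 and 0.209 ± 0.00789 (SD, n = 3 each, two-sided exact permutation test, p = 0.3).

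**Figure D3:**
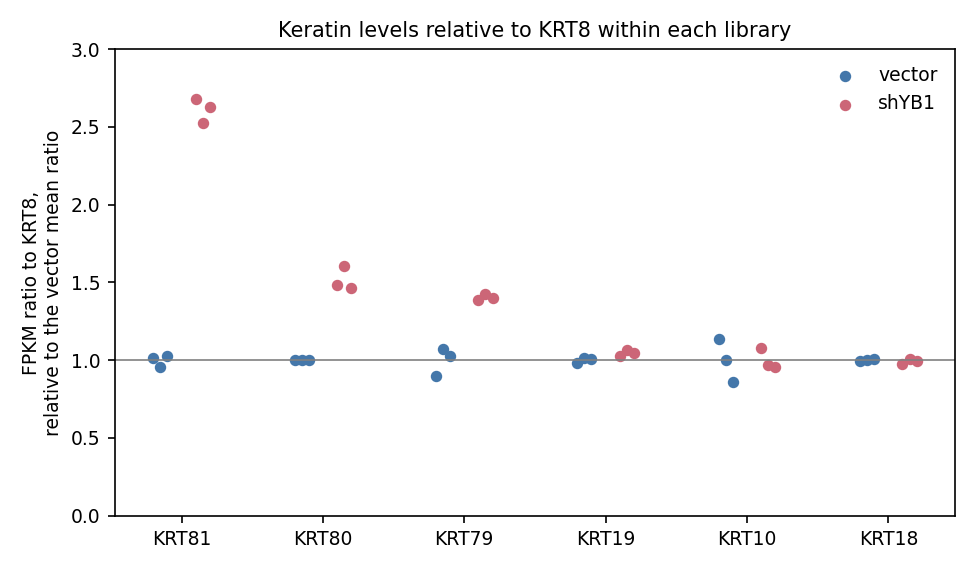
FPKM of 6 keratins divided by that of KRT8 in the same library and set relative to the vector mean (y axis, linear), for vector (blue) and shYB1 (red) libraries. KRT81, KRT80 and KRT79 lie at 2.61, 1.52 and 1.41 times the vector mean on average, KRT19 lies at 1.05 times, and KRT10 and KRT18 overlap with the vector points.

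The summed FPKM of type I and type II keratins were not equal. These sums include KRT8 and KRT18, whose levels are less certain because of their shared words and overlapping exons. Summed over all members, type I keratins were at 284.7, 286.2 and 299.1 FPKM with vector against 307.7, 305.8 and 319.9 FPKM with shYB1. Type II keratins were at 229.6, 225.8 and 237.4 FPKM and at 254.9, 247.2 and 260.2 FPKM. The ratio of type II to type I was 0.806, 0.789 and 0.794 with vector against 0.828, 0.808 and 0.814 with shYB1, and the lowest shYB1 value lay just above the highest vector value. All keratins together took 0.181% to 0.182% of the summed FPKM of the library in vector cells and 0.192% to 0.199% in shYB1 cells.

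The members with a mean of 0.1 to 1 FPKM were not tested with the filter, and none was called in the fit without it. KRT7, the type II keratin of ducts, was at 0.488, 0.320 and 0.227 FPKM with vector against 0.482, 0.610 and 0.509 FPKM with shYB1. Vector replicate 1 lay within the shYB1 values. KRT15, a type I keratin of basal cells, was at 0.663, 0.533 and 0.413 FPKM and at 0.684, 0.582 and 0.738 FPKM, also with overlap. KRT32, a type I hair keratin, was at 0.282, 0.344 and 0.324 FPKM and at 0.427, 0.275 and 0.437 FPKM. KRT4, a keratin of mucosal epithelium, was between 0.231 and 0.276 FPKM in all libraries. KRT78 varied most, at 0.0287, 0.0450 and 0.244 FPKM with vector against 0.0778, 0.286 and 0.175 FPKM with shYB1.

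Below this, the values moved in steps of the smallest value. Of the 21 members above 0 with a mean under 0.1 FPKM, 17 had a value in at least 2 libraries, and in 14 of these all values were whole multiples of the smallest, within 0.1, after allowing for the relative depth. The groups did not overlap in 3 of the 21, KRT86, KRT13 and KRT33B, against 8.25% of all genes at this level. KRT13, a mucosal type I keratin, was listed at 0 in the vector libraries and at 0.0244, 0.0236 and 0.0498 FPKM in the shYB1 libraries, which are 1, 1 and 2 times its smallest value. KRT33B, a type I hair keratin, was listed at 0 in the vector libraries and at 0.0301, 0.0293 and 0.0926 FPKM in the shYB1 libraries, or 1, 1 and 3.01 times its smallest value. In the fit without a filter neither was called (limma adjusted p = 0.0560 and 0.0678), and a difference was not detectable at this depth. KRT5, of basal epidermis, reached 0.203 FPKM in shYB1 replicate 1, the highest single value among the 21, and its 6 values overlapped between the groups. KRT17, induced in stressed epithelia, was at 0.0283 to 0.165 FPKM over all libraries, also with overlap. KRT14, KRT1, KRT2, KRT9, KRT6A and KRT6C, all keratins of skin, were among the 22 members listed at 0 in all libraries.

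Keratin genes lie in a cluster on each of 2 chromosomes, and their levels differed along them. On chromosome 12, 27 members span 783906 bases of GRCh38, and on chromosome 17, 28 members span 970178 bases. The tested members of chromosome 12 were KRT80 and KRT81 near its one end and KRT79, KRT8 and KRT18 near its other end. KRT7 lies between KRT80 and KRT81, and the span of KRT86 encloses KRT81. The members between KRT81 and KRT3, which include the hair keratins from KRT82 to KRT85, the KRT6 genes and KRT71 to KRT77, were all under 0.1 FPKM on average. The members that rose most stood at both ends, KRT80 and KRT81 at the first and KRT79 at the other, with KRT78 between it and KRT8, which was not called. On chromosome 17, KRT10 and KRT19 were tested, and neither neighbours the other.

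**Figure D4:**
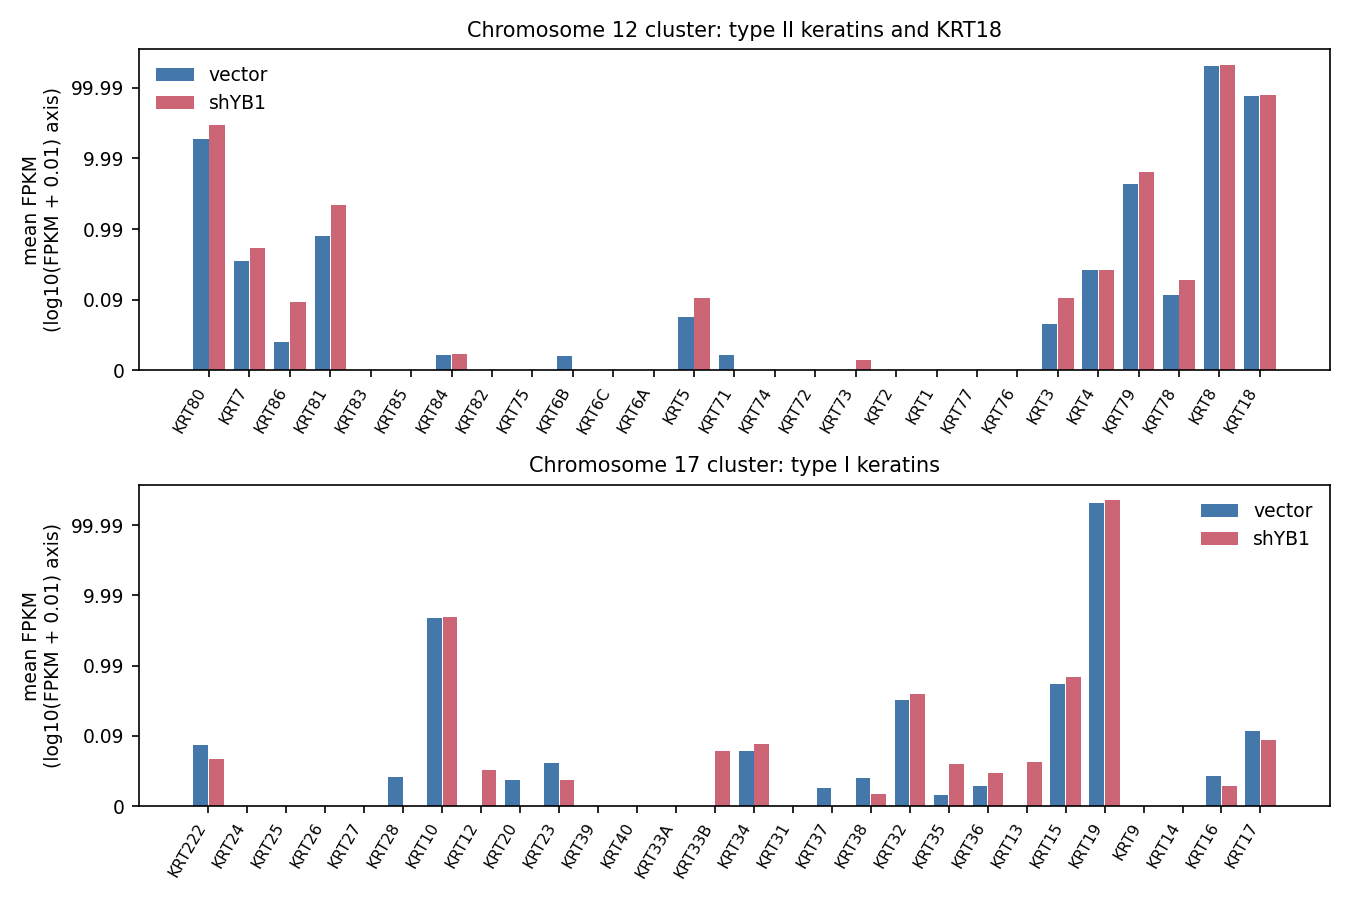
Mean FPKM of all 55 keratin genes in the order in which they lie on chromosome 12 (top) and chromosome 17 (bottom), on a log10(FPKM + 0.01) axis, for vector (blue) and shYB1 (red) cells, each a mean of 3 libraries. On chromosome 12 the genes above 1 FPKM in at least 1 group stand near the ends of the cluster.

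The Y-box was searched in keratin promoters as CCAAT or ATTGG, which covers both strands, over the 250 bases before each transcript start. The RefSeq promoter table (GRCh38.p14) held 38 start sites of 34 member genes. The motif was in 17 of these 38 windows, or 44.7%, and in 16 of the 34 genes, against 32% of 35116 windows in the table. For genes tested here the share was 33.3% of 12156 windows. Among the keratin windows with the motif, only that of KRT10 belonged to a tested keratin. Of the tested keratins, 3 had an entry, and their windows are shown because KRT79 rose and KRT8 and KRT10 were not called. Capitals mark the motif. The windows lie on the minus strand of GRCh38.p14, for KRT79 at chr12:52834312-52834561, for KRT8 at chr12:52926470-52926719 and for KRT10 at chr17:40822615-40822864.
KRT79: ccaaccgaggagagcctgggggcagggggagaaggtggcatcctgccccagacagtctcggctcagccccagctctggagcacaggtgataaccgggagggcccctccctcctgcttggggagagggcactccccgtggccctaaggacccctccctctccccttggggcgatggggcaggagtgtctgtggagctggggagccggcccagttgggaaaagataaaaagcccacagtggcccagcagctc
KRT8: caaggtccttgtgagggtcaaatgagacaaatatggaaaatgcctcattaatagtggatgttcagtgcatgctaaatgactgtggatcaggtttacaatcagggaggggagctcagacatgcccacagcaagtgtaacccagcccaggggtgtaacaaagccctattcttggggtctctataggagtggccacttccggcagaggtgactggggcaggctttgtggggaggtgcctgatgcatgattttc
KRT10: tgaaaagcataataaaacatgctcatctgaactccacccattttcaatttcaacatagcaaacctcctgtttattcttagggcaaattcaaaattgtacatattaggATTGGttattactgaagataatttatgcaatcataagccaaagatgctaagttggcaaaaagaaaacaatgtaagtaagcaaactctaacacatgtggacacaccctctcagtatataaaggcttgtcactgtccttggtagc

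The window of KRT10 held 1 match, beginning 143 bases before the start, and those of KRT79 and KRT8 held none. The KRT8 window lies inside the annotated span of the gene and belongs to a single start, and other starts of KRT8 were not searched. A match is not evidence of binding. KRT80, KRT81, KRT18 and KRT19 were not analysed here for the motif.

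Proteins that anchor or accompany keratin filaments were read from the same fit, and the counts in each list stand beside 18.7% higher and 6.93% lower over all genes tested. Of 14 desmosome genes, which join filaments between cells, 6 were tested, 1 was higher (DSG2) and 1 lower (PERP), with a median log2 fold change of 0.17. DSG2, a desmosomal cadherin and the most abundant of the list, was at 27.3, 29.1 and 27.1 FPKM with vector against 33.0, 30.2 and 29.6 FPKM with shYB1 (log2 fold change 0.15, standard error 0.049, limma adjusted p = 0.0455). PERP, a tetraspan desmosomal protein, was at 23.3, 24.2 and 23.1 FPKM and at 19.5, 19.2 and 20.2 FPKM (log2 fold change -0.26, standard error 0.040, limma adjusted p = 0.00146). DSP, which ties keratins to the desmosome, had a mean of 0.0514 FPKM.

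Of 10 plakin and hemidesmosome genes, which link filaments to the cell base, 7 were tested, and ITGA6 and PLEC were higher, beside 18.7% of all genes tested. ITGA6, the integrin α6 chain, was at 2.90, 3.11 and 2.63 FPKM with vector against 4.05, 4.17 and 3.83 FPKM with shYB1 (log2 fold change 0.47, standard error 0.078, limma adjusted p = 0.00208). PLEC, the cytolinker plectin, was at 79.9, 82.4 and 83.3 FPKM and at 91.2, 89.8 and 92.2 FPKM (log2 fold change 0.15, standard error 0.032, limma adjusted p = 0.00622). In both genes the groups did not overlap. CD151, the most abundant of the list at a mean of 176.4 FPKM, did not pass the test (log2 fold change 0.077, limma adjusted p = 0.200). ITGB4, the lowest in fold change of the list, went the other way without being called (log2 fold change -0.29, limma adjusted p = 0.0990). It was at 1.34, 1.44 and 1.52 FPKM with vector against 0.956, 1.27 and 1.24 FPKM with shYB1, without overlap. The median log2 fold change of the list was 0.077.

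Of 15 other intermediate filament genes, 6 were tested, and LMNA and LMNB2, which encode nuclear lamins, were higher, beside 18.7% of all genes tested. After median-of-ratios rescaling 1 of the 6 was higher. LMNA was at 66.1, 65.7 and 70.9 FPKM with vector against 75.3, 78.2 and 79.5 FPKM with shYB1 (log2 fold change 0.20, standard error 0.039, limma adjusted p = 0.00465). LMNB2 had a log2 fold change of 0.12 (limma adjusted p = 0.0219). VIM, the mesenchymal filament protein vimentin, was the most abundant filament mRNA at 1366, 1390 and 1444 FPKM and at 1416, 1450 and 1445 FPKM, and did not pass the test (log2 fold change 0.038, limma adjusted p = 0.409). Of 8 keratin-bound proteins, all were tested and FAM83H, a scaffold that recruits casein kinase to keratin filaments, was higher (log2 fold change 0.20, limma adjusted p = 0.0210). HSPB1, a small heat shock protein and the most abundant of the 8, was not called (log2 fold change 0.024, limma adjusted p = 0.782). TCHP and KLHL24 were not called either (log2 fold change 0.20 and -0.22, limma adjusted p = 0.110 and 0.0956). In both the groups did not overlap, with shYB1 higher in TCHP and lower in KLHL24. After median-of-ratios rescaling 0 of the 8 were higher and 1 was lower, beside 11.4% and 12% of all genes tested.

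Of 15 transcription factors known to act on keratin genes, 6 were tested, 2 were higher (KLF4 and KLF5) and 2 lower (ELF3 and NFE2L2), beside 18.7% higher and 6.93% lower of all genes tested. ELF3, an epithelial ETS factor, fell most, from 57.2, 56.2 and 61.7 FPKM in vector to 36.4, 36.3 and 38.7 FPKM in shYB1 libraries (log2 fold change -0.65, standard error 0.044, limma adjusted p = 7.39e-06). KLF4, a factor of epidermal differentiation, was at 6.82, 7.31 and 6.26 FPKM and at 9.07, 8.43 and 8.39 FPKM (log2 fold change 0.34, standard error 0.065, limma adjusted p = 0.00431). KLF5 had a log2 fold change of 0.25 (limma adjusted p = 0.0471) and NFE2L2 one of -0.12 (limma adjusted p = 0.0407). TP63 and the hair factor HOXC13 had means of 0.00181 and 0.0114 FPKM, and FOXN1 was listed at 0. None of 12 cornified envelope genes reached the filter. The highest was FLG, encoding filaggrin, at 0.488, 0.527 and 0.581 FPKM with vector against 0.897, 1.10 and 0.919 FPKM with shYB1. In the fit without a filter FLG was higher (log2 fold change 0.76, standard error 0.12, limma adjusted p = 0.00857), beside 9.89% of all genes. TGM1, CDSN, TGM5, TGM3 and CNFN were not called there, with log2 fold changes of 0.63, 0.27, 0.22, 0.071 and -0.22. IVL and LOR were listed at 0.

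Together, 8 of the 33 tested partner genes were higher and 3 lower, beside 18.7% and 6.93% of all genes tested. After median-of-ratios rescaling this became 4 and 4, beside 11.4% and 12%, and over all genes the share of higher genes among the calls went from 73.0% to 48.8%. The calls of DSG2, LMNB2, FAM83H, KLF5 and NFE2L2 were near the threshold. With median-of-ratios rescaling the limma adjusted p was 0.133 for LMNB2, 0.188 for DSG2, 0.0674 for FAM83H and 0.103 for KLF5, and with quantile scaling it was 0.0845, 0.214, 0.0747 and 0.117. With a variance prior without trend it was 0.0737 for LMNB2, 0.101 for DSG2, 0.0577 for KLF5 and 0.0936 for NFE2L2. Without a filter it was 0.0951 for DSG2, 0.0906 for KLF5 and 0.0641 for NFE2L2, and with a common total it was 0.0683 for DSG2. The adjusted p of LMNB2 from limma was 0.0537 to 0.0868 without vector replicate 1 or 2 or shYB1 replicate 2 or 3, and that of FAM83H 0.0648 to 0.0750 without vector replicate 1 or shYB1 replicate 2 or 3. That of DSG2 was 0.0707 to 0.157 without vector replicate 1 or 3 or shYB1 replicate 1 or 2. For KLF5 it was 0.0641 to 0.170 without any vector replicate or shYB1 replicate 1 or 2, and for NFE2L2 0.0704 to 0.137 without vector replicate 1 or 3 or any shYB1 replicate. The calls of PERP, ITGA6, PLEC, LMNA, ELF3 and KLF4 held in every alternative that tested them.

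**Figure D5:**
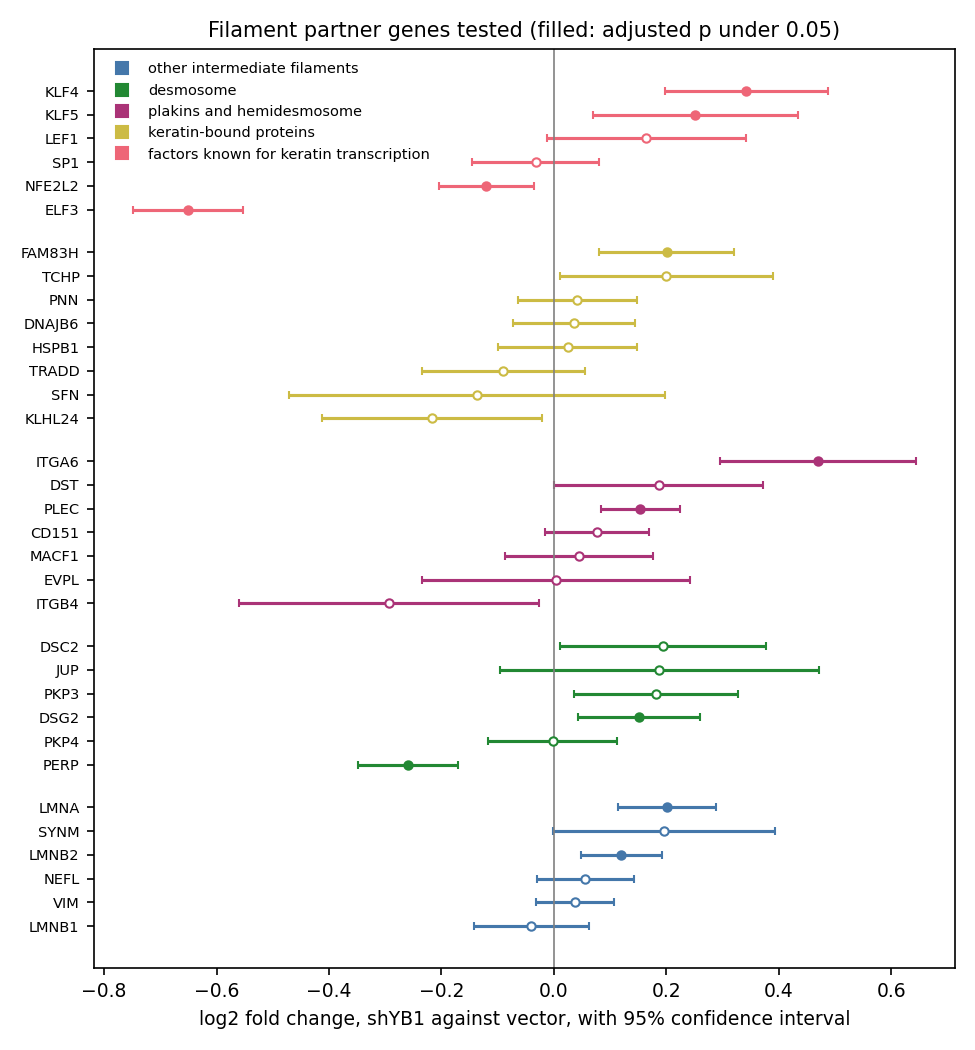
Log2 fold change of the 33 tested partner genes, shYB1 against vector, on the log2(FPKM + 0.1) scale, with 95% confidence intervals from limma, grouped and coloured by list. Filled points have an adjusted p under 0.05, of which 8 lie above 0 and 3 below.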

How the data were processed

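The authors deposited FPKM per gene and library for 20030 genes. Submitters' processing notes name Trimmomatic, HISAT2, Cufflinks, HTSeq, DESeq and GRCh38, without versions or roles. FPKM hold no counts, so no counting interval was computed. No comparison columns were present in the table.

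Genes averaging 1 FPKM or more over the libraries, 10439 in number, were transformed to log2(FPKM + 0.1), so that changes of low genes come out too small. The limma package (version 3.58.1, R version 4.3.3) tested shYB1 against vector, two-sided, with an expression trend and a robust prior. P-values were adjusted by Benjamini-Hochberg across these genes and called below 0.05. The step was also run on simulated data, whose outcome is not reported here. Noise was drawn independently for each gene, so a shift in the scaling of libraries was not covered. Single ratios were compared with exact permutation tests.

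Relative depth was read as the ratio to shYB1 replicate 1 around which genes under 0.08 FPKM crowded most closely. All 55 keratins were matched to GENCODE release 29 (GRCh38), 44 by RefSeq accession and 11 by symbol. Shared words were counted on both strands. Coding sequences were aligned with Biopython 1.88, and the aligned bases are not reported here.

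The named genes were every tested keratin, keratins of 0.1 to 1 FPKM, and, of each partner list, the called members with the 3 largest changes and the most abundant member. Other members and NFE2L2 were named after their values were seen. The members and lists were chosen with earlier results of these data known.

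Alternatives were pseudocounts of 1 and 0.01, no filter or one at 5 FPKM, median-of-ratios, common-total and quantile scaling, a prior without trend, a replicate block, and each library left out. The fits of KRT86 without a filter, the sum of KRT81 and KRT86 and the ratios to KRT8 were added after seeing the data.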

Additional observations from a re-analysis of the deposited data

How the results depend on the processing

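The count of keratins called was between 3 and 5 over all 15 alternatives, all of them higher, but the number tested differed. It was 3 or 4 in the alternatives that tested 7 keratins. With a filter at 5 FPKM it was 3 of 5, where 2325 of all 6547 genes were called. Without a filter it was 5 of 33, near the share of all genes, of which 13.7% were called and 9.89% were called higher. KRT81, KRT80 and KRT79 were called in each alternative that tested them, and KRT19 in 8 of 15. YBX1 stayed between -1.20 and -1.13. The count of partner genes called went from 11 to 7 with a variance prior without trend and was between 6 and 9 with a library left out, lowest at 6 without vector replicate 1 and at 6 without shYB1 replicate 2. Single genes were followed for the tested keratins, the called partner genes and the most abundant tested gene of each partner list. Among these the sign of 4 uncalled genes turned, and the other uncalled partner genes were not followed. KRT18 was at -0.0085, VIM at -0.017 and HSPB1 at -0.031 after median-of-ratios rescaling, and with a library left out KRT10 ranged from -0.019 (without vector replicate 3) to 0.16 and HSPB1 from -0.030 (without shYB1 replicate 3) to 0.074, with -0.017 without vector replicate 1. The cause was not tested.

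With the replicate number as a block, 4 keratins, 11 partner genes and 2834 of all genes were called, and YBX1 was called with a log2 fold change of -1.14. Deviations of same-numbered libraries from their group means correlated at -0.169 to -0.0082 across genes, so the numbers were not taken to pair the libraries. Of the 55 members 22 were at 0 and 21 had a mean under 0.1 FPKM, and of the 21 KRT86 alone was called without a filter. An arm left with 2 libraries was fitted with the spread shared across genes.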
